A study of Mus musculus with 27 samples.

Results

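The junctions described here joined a break at the mouse immunoglobulin heavy chain (IgH) Iμ region to chromosome 12 DNA on the side of the bait away from the switch regions, the side where the D and V segments lie. The members were all junctions on chromosome 12 of mm9 from position 114674914, more than 10 kb above the bait, up to the last junction near the telomere at 121250767. They are called V-side joins. There were 2080 of them among 193201 junctions in all, and among 136740 that lay outside a bait window reaching 10 kb to each side of the bait (chromosome 12, 114664780 to 114664913).

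The assay, LAM-HTGTS, amplifies outward from a fixed bait and sequences the DNA, called the prey, to which a broken bait end was joined. All samples were CH12F3 cells, a mouse B lymphoma line able to switch to IgA, harvested after 72 h with IL-4, anti-CD40 and TGFβ. The mutant genotypes were PAXX-/-, XLF-/-, XLF-/-PAXX-/- and Ligase4-/-, each as 2 clones, and WT was 1 parental line. Both XLF-/-PAXX-/- clones came from one PAXX-/- clone, Ligase4-/- clone 2 came from another laboratory, and each of the 9 clones had 3 libraries. The series calls the 3 libraries of a clone biological replicates but does not say whether they were separate cultures, so p-values over libraries measure only the spread between these libraries. Libraries held 3610 to 14524 junctions, of which 13 to 207 were V-side joins. PAXX-/- clones 1 and 2 gave 77 and 64 members, XLF-/- clones 269 and 233, XLF-/-PAXX-/- clones 304 and 292, Ligase4-/- clones 579 and 215, and WT 47.

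In the IgH locus, V, D and J segments are cut by a nuclease and then joined during B-cell development, usually with loss of the DNA between them. The mature cell then exchanges its constant region by class switch recombination downstream of the assembled segments. AID, the enzyme that starts switching, deaminates DNA in the switch regions, and the resulting breaks are closed mostly by classical non-homologous end joining. DNA ligase 4 is the ligase of that pathway, while XLF and PAXX are related accessory factors that act with it. Breaks that are not rejoined directly can be sealed by alternative end joining, which often uses a few bases of microhomology. Switching by deletion joins the bait to DNA below it. Above the bait, a join with the prey on the strand opposite to the bait has the orientation of an inversion, and a join on the same strand has that of an excised circle or, between alleles, of other rearrangements.

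Exact junctions seldom recurred: of 1942 combinations of position and strand, 95.7% were found in 1 library and 10 in at least 3 clones. The 5 that recurred in most libraries all had the prey on the opposite strand, and all 5 lay at or within 2 kb above one of 2 positions, 114720387 and 116396614, that are the edges described further on. Junction 114720387 was found 7 times in 6 libraries of 5 clones, and its prey is shown because the inserted bases between bait and prey were alike in different clones. Reads run from bait to prey, 5′ to 3′, with the last 20 bait bases and the first 40 prey bases in lower case. Capitals mark bases between the 2 alignments that neither explains.
Lower edge, Ligase4-/- clone 1, prey chr12:114720387-114720511, plus strand: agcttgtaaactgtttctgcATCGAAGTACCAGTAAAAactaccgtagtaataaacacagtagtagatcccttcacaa
Lower edge, Ligase4-/- clone 2, prey chr12:114720387-114720560, plus strand: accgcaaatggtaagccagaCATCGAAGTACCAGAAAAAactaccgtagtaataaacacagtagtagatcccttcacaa
Lower edge, XLF-/-PAXX-/- clone 2, prey chr12:114720387-114720452, plus strand: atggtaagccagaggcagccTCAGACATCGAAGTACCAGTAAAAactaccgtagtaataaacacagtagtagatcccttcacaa
All 7 reads carried bases that aligned to neither side. In 5 of them the insertion was 18 to 24 bases long and held the same 13-base word, ATCGAAGTACCAG, and over the last 18 bases no pair of the 5 differed at more than 1 base.

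Junction 116396614 was found 8 times in 4 libraries of 3 clones, 2 XLF-/-PAXX-/- clones and Ligase4-/- clone 1, and is shown for the same reason.
Upper edge, Ligase4-/- clone 1, prey chr12:116396614-116396907, plus strand: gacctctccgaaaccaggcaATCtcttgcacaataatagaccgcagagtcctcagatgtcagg
Upper edge, XLF-/-PAXX-/- clone 1, prey chr12:116396614-116396905, plus strand: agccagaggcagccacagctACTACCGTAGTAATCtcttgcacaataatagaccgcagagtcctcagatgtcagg
Upper edge, XLF-/-PAXX-/- clone 2, prey chr12:116396614-116397017, plus strand: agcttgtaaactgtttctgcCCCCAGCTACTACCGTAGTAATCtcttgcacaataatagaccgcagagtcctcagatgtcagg
Upper edge, Ligase4-/- clone 1, prey chr12:116396614-116396993, plus strand: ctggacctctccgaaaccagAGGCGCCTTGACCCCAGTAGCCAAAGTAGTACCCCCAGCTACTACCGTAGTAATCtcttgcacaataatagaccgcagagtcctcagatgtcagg
All 8 reads carried insertions, of 3 to 55 bases, and 7 of the 8 ended in ATC before the prey. Each of these 7 was the 55-base insertion or a run of its last bases. The bait was thus joined to 1 shared sequence at different points, although the aligned prey began at the same position. Where these bases came from was not tested. The 10-base word TACCGTAGTA stood in 7 of the 8. Several insertions, the longest among them, shared the 14-base word ACTACCGTAGTAAT with the first bases of the lower-edge prey printed above. Unaligned bases at the upper edge thus matched aligned bases at the lower one. No mm9 annotation was used, so no D, J or V segment is named for either edge; RefSeq's GRCm38.p6 table, used for names alone, lists 4 J, 20 D and 183 V symbols for the IgH locus of chromosome 12.

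The other 3 recurrent junctions had overlaps or insertions at the joint. Junction 116398360, 1.75 kb above the upper edge, was found in 5 libraries of 4 clones, each time from the same bait end and with a 4-base overlap, shown in capitals.
Recurrent join, XLF-/- clone 1, prey chr12:116398360-116398437, plus strand: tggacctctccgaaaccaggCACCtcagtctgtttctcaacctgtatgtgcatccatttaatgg
Junction 114720479 lay 92 bases above the lower edge and was found in 4 clones, in 3 of them with a 3-base overlap and the same bait end. Junction 114722204, 1.82 kb above the lower edge, was found in 4 libraries of 3 clones, with insertions of 5, 11, 22 and 32 bases. These differed in length but were partly alike. The insertions of 22 and 32 bases both held the word TCTGCAG, and their last bases resembled the 11-base insertion, TGGAGATGCTA.

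The V-side joins were concentrated in a few 50 kb bins. Of 132 bins up to the last junction, 5 held no member. The bin from 114674914 to 114724913 held 658 joins and the next one, to 114774913, held 403, together 51.0% of the members. The bin from 116374914 to 116424913, more than 1.6 Mb farther up, held 274. Ranks 4 and 5 were the bins from 114774914 to 114824913 with 55 joins and from 116424914 to 116474913 with 43. With clones weighted equally, the mean shares of a clone's members in these 5 bins were 32.1%, 16.4%, 13.6%, 3.26% and 1.96%. The other 127 bins held a median of 5 joins and at most 15.

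The 3 leading bins held joins of all 9 clones. The first held 33.3% of the members in PAXX-/-, 32.5% in XLF-/-, 32.2% in XLF-/-PAXX-/- and 30.4% in Ligase4-/-, against 31.9% in WT, so the 5 genotypes lay close together. The second held 7.80%, 18.1%, 22.3% and 20.7% in the same 4 genotypes, against 8.51% in WT, and WT contributed only 4 joins to it. The upper bin held 17.0%, 11.8%, 16.4% and 11.0%, against 12.8% in WT.

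**Figure D1:**
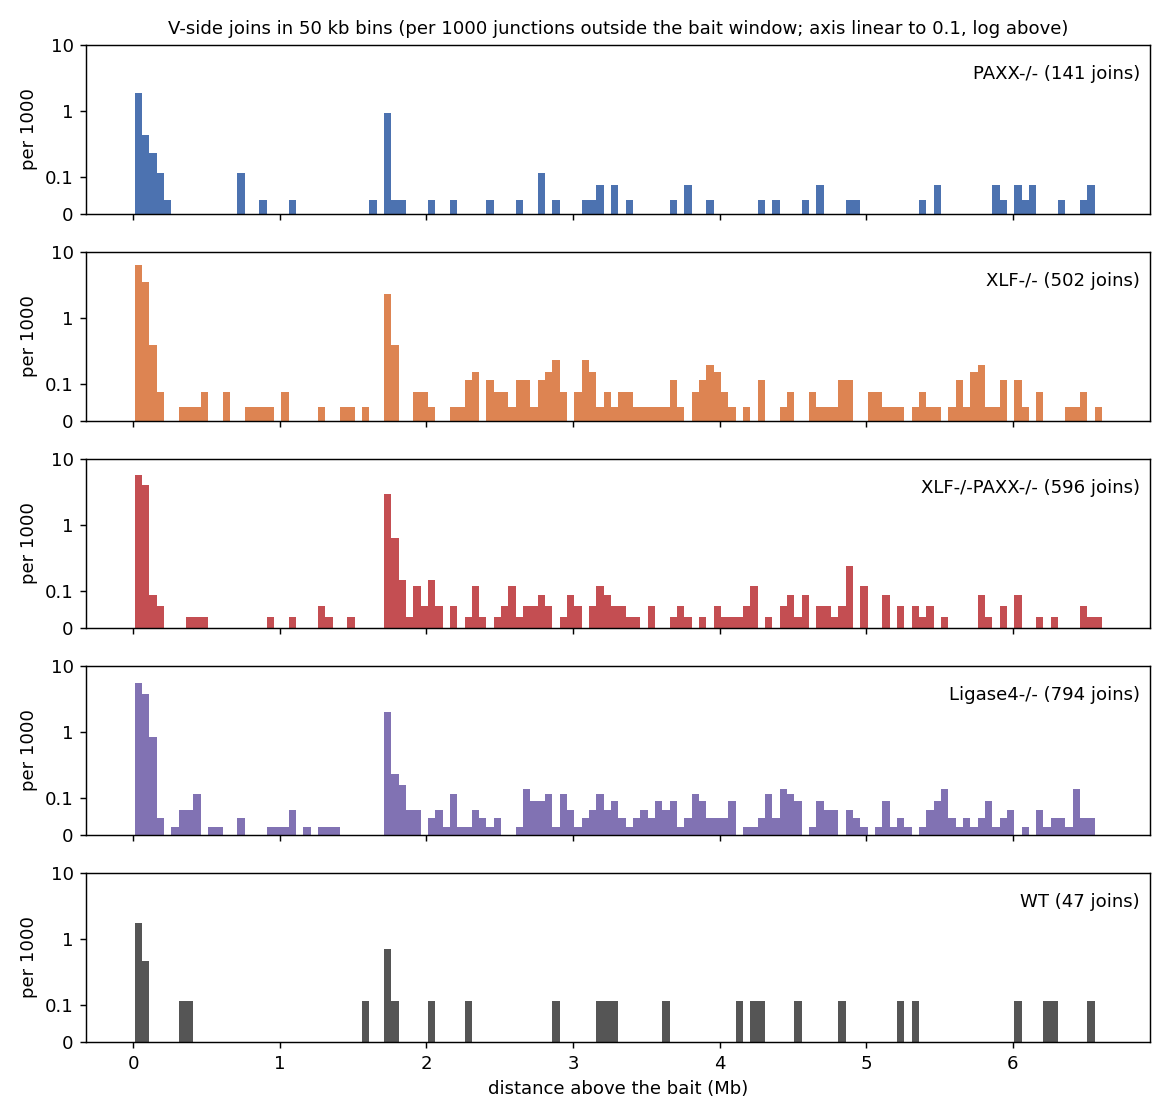
V-side joins per 1000 junctions outside the bait window (vertical axis, linear to 0.1 and logarithmic above) in 50 kb bins by distance above the bait (horizontal axis, Mb), 1 panel per genotype. Every genotype has a block at the left end and a second peak near 1.7 Mb, with few joins between them and a thin, even spread beyond.

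Joins began abruptly at 2 positions rather than fading in. Leaving out joins with more than 20 unaligned bases, the lowest member lay at 114720387, 55.5 kb above the bait, and is called the lower edge. Below it, the 45.5 kb from the bait window up held 5 members, each with such a gap. Inside the bait window, 6441 joins without such a gap lay above the bait, of which 6416 lay within 3 kb and 0 between 4 and 10 kb. The lowest such member of the upper bin lay at 116396614, 1731.7 kb above the bait, and is called the upper edge. The edges were chosen from these positions, and what follows about them is a description.

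The 50 kb above the lower edge held 1051 members (50.5%), and the 50 kb above the upper edge held 304 (14.6%). The 1626 kb between them held 131, of which 54 had a long gap. The 4804 kb above the upper zone held 589. Without long gaps this was a density of 47.3 joins per Mb between the zones and 117 per Mb above the upper zone.

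Within the lower zone the joins crowded towards the edge. Opposite-strand joins had a median distance of 2.94 kb to the lower edge over all clones (n = 860), and 40.6% lay within 2 kb of it. Those of the upper zone had a median of 3.63 kb (n = 229), with 37.6% within 2 kb. Pooled same-strand joins of the upper zone had a median of 10.3 kb (n = 69), which was 0.37 kb in PAXX-/- (n = 7), 13.8 kb in XLF-/- (n = 16), 7.42 kb in XLF-/-PAXX-/- (n = 29) and 12.04 kb in Ligase4-/- (n = 14), against 0.195 kb in WT (n = 3). Those of the lower zone had a median of 2.85 kb (n = 165). By genotype, the median distance of opposite-strand joins to the lower edge was 2.67 kb in PAXX-/- (n = 31), 2.78 kb in XLF-/- (n = 214), 3.21 kb in XLF-/-PAXX-/- (n = 272) and 2.98 kb in Ligase4-/- (n = 334), against 1.76 kb in WT (n = 9).

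Per library, the lower zone was taken as joins per 1000 junctions outside the bait window. It held 1.61, 2.13 and 2.48 (lowest, median and highest of 6 libraries) in PAXX-/- and 7.99, 9.97 and 11.4 in XLF-/-. XLF-/-PAXX-/- libraries held 7.05, 9.83 and 11.4 and Ligase4-/- libraries 6.02, 9.26 and 10.8, against 2.45, 3.34 and 1.01 in the 3 WT libraries. All XLF-/-, XLF-/-PAXX-/- and Ligase4-/- libraries lay above all WT libraries, while PAXX-/- lay within the WT range. The upper zone held 0.231, 0.976 and 1.79 in PAXX-/- libraries and 1.90, 2.63 and 3.07 in XLF-/- libraries. XLF-/-PAXX-/- libraries held 2.02, 3.60 and 3.98 and Ligase4-/- libraries 0.344, 2.29 and 3.67, against 1.75, 0 and 0.337 in WT. There the Ligase4-/- range overlapped WT, with libraries 1 and 2 of clone 2 at 0.501 and 0.344.

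**Figure D2:**
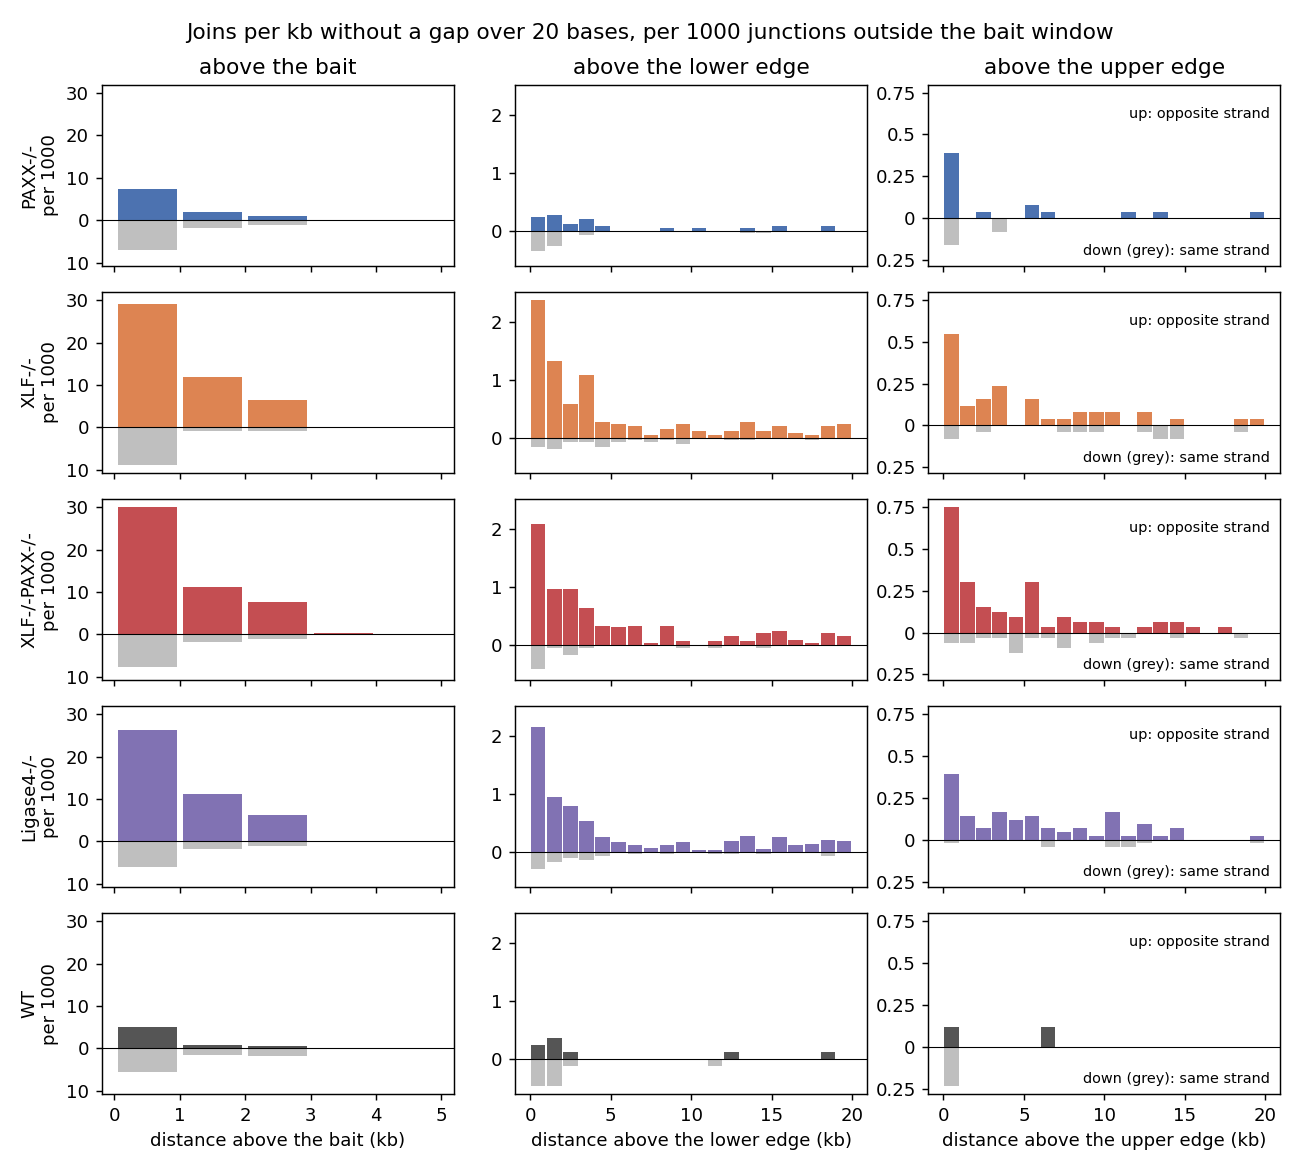
Joins per kb and per 1000 junctions outside the bait window (vertical axis), opposite-strand upwards in colour and same-strand downwards in grey, by distance above the bait, the lower edge and the upper edge (horizontal axes, kb), with 1 row per genotype and gaps over 20 bases left out. Opposite-strand bars exceed same-strand bars near all 3 starting points in XLF-/-, XLF-/-PAXX-/- and Ligase4-/-, while above the bait the 2 strands are nearly equal in PAXX-/- and same-strand bars are the higher in WT between 0 and 3 kb.

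The prey strand of the V-side joins was uneven. Same-strand joins were 596 of 2080 and opposite-strand joins 1484. Averaged over clones, the same-strand share was 17.6 points below an even split, and it lay below in 9 of 9 clones (exact two-sided sign-flip test, p = 0.00391, the smallest that 9 clones allow; adjusted over 10 such tests, 0.00781).

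By the mean over libraries, the same-strand share was lowest in Ligase4-/- and highest in WT and PAXX-/-. It was 34.6%, 44.8% and 57.1% (lowest, median and highest of 6) in PAXX-/- and 12.3%, 29.3% and 33.8% in XLF-/-. XLF-/-PAXX-/- libraries had 21.9%, 27.8% and 31.1% and Ligase4-/- libraries 10.4%, 24.8% and 31.25%. WT libraries had 50%, 35.7% and 53.8%. With all joins counted, no library of XLF-/-, XLF-/-PAXX-/- or Ligase4-/- reached the lowest WT or the lowest PAXX-/- library. The means were 45.6% ± 9.03 in PAXX-/-, 26.0% ± 8.82 in XLF-/-, 27.7% ± 3.51 in XLF-/-PAXX-/- and 23.2% ± 7.69 in Ligase4-/- (SD, n = 6 libraries each), against 46.5% ± 9.55 in WT (SD, n = 3).

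Only the difference between XLF-/- and PAXX-/- passed the threshold for this share. It was -19.6 points (95% interval -31.4 to -7.52; exact permutation p = 0.00216, adjusted over 42 tests 0.0455). These genotypes shared 2 sequencing runs, and the difference was -23.5 points within the first and -17.7 within the second; permuted within runs, the adjusted p was 0.0625. Leaving out any 1 of the 6 XLF-/- libraries, or library 1 of PAXX-/- clone 2, also ended the call, with differences of -21.2 to -16.9 points and an adjusted exact permutation p of 0.0556 to 0.0833. Against WT, the differences were -20.5 points in XLF-/-, -18.8 in XLF-/-PAXX-/- and -23.3 in Ligase4-/-, each at the lowest exact permutation p open to 6 against 3 libraries, 0.0119, with an adjusted p of 0.0556. Without gaps over 20 bases, an alternative added after seeing the data, they were -21.1, -18.7 and -22.3 points. The exact permutation p was then 0.0357 (adjusted 0.125) in XLF-/- and XLF-/-PAXX-/-, and 0.0119 (adjusted 0.0833) in Ligase4-/-. With all joins, PAXX-/- minus WT was -0.929 points (95% interval -15.8 to 14.99; exact permutation p = 0.893). XLF-/-PAXX-/- minus XLF-/- was 1.71 points (95% interval -6.38 to 10.4; exact permutation p = 0.675).

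Over all genotypes the opposite strand was the more frequent near the edges and the bait, while the distant joins were split almost evenly; this difference by position was not tested. In the 50 kb above the lower edge, same-strand joins were 20 of 51 in PAXX-/-, 33 of 247 in XLF-/-, 44 of 316 in XLF-/-PAXX-/- and 58 of 392 in Ligase4-/-, against 10 of 19 in WT. In these counts, which leave out long gaps, opposite-strand joins were the more numerous in all 6 libraries of each of XLF-/-, XLF-/-PAXX-/- and Ligase4-/-, in 5 of 6 PAXX-/- libraries and in 1 of 3 WT libraries. In the 3 kb directly above the bait, which are not members, the same-strand share was 49.4% of 520 joins in PAXX-/-, 18.7% of 1495 in XLF-/-, 17.9% of 1988 in XLF-/-PAXX-/- and 16.9% of 2281 in Ligase4-/-, against 58.3% of 132 in WT. Above the upper zone, 287 of 561 joins (51.2%) were on the same strand. By genotype that was 62.2% of the joins in PAXX-/-, 46.9% in XLF-/-, 58.6% in XLF-/-PAXX-/- and 48.6% in Ligase4-/-, against 35.3% in WT, where it rests on 17 joins.

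V-side joins made up a larger part of the junctions in each XLF-/-, XLF-/-PAXX-/- and Ligase4-/- library than in any WT library. As a share of junctions outside the bait window, they were 0.422%, 0.534% and 0.740% (lowest, median and highest of 6 libraries) in PAXX-/- and 1.59%, 2.03% and 2.14% in XLF-/-. XLF-/-PAXX-/- libraries had 1.53%, 1.80% and 2.03% and Ligase4-/- libraries 1.15%, 1.67% and 2.43%. WT libraries had 0.699%, 0.520% and 0.439%, with exact 95% binomial intervals of 0.428 to 1.08, 0.285 to 0.871 and 0.234 to 0.749 that cover counting error alone. No library of the 3 higher genotypes overlapped WT, and the PAXX-/- range spanned that of WT. Per 100 joins to other chromosomes, library 2 of Ligase4-/- clone 2 had 2.56 V-side joins, against 3.05 in WT library 1, so Ligase4-/- and WT overlapped on that scale.

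The mean share was 0.551% ± 0.106 in PAXX-/-, 1.93% ± 0.231 in XLF-/-, 1.79% ± 0.160 in XLF-/-PAXX-/- and 1.76% ± 0.460 in Ligase4-/- (SD, n = 6 libraries each), against 0.553% ± 0.133 in WT (SD, n = 3). XLF-/- minus PAXX-/- was 1.38 points (95% interval 1.15 to 1.59; exact permutation p = 0.00216, adjusted 0.0455), and it was 1.60 and 1.26 points within the 2 shared runs. Permuted within those runs, its adjusted p was 0.0625. Leaving out library 1 or 2 of XLF-/- clone 1, library 1, 2 or 3 of XLF-/- clone 2, or library 1 of PAXX-/- clone 2 left 1.33 to 1.44 points but raised the adjusted exact permutation p to between 0.0556 and 0.0833. Against WT the differences were 1.37 points in XLF-/- (95% interval 0.955 to 1.73), 1.23 in XLF-/-PAXX-/- (0.979 to 1.505) and 1.20 in Ligase4-/- (0.453 to 1.98). Each had the smallest exact permutation p possible for 6 against 3 libraries, 0.0119, and none passed after adjustment (0.0556). With Sα junctions left out of the denominator the differences from WT were 3.33 points in XLF-/-, 3.33 in XLF-/-PAXX-/- and 2.00 in Ligase4-/-, the last with an exact permutation p of 0.0357 (adjusted 0.136), and XLF-/- minus PAXX-/- was 3.37 (exact permutation, adjusted p = 0.0455). PAXX-/- minus WT was -0.00192 points (95% interval -0.185 to 0.174), and XLF-/-PAXX-/- minus XLF-/- was -0.139 points (95% interval -0.394 to 0.119; exact permutation p = 0.242). Over the 9 clones, genotype accounted for 92.3% of the sum of squares (exact permutation p = 0.0413, adjusted 0.140). WT was 1 clone, and WT, XLF-/-PAXX-/- and Ligase4-/- each had sequencing runs of their own, so clone, run and genotype cannot be told apart in these contrasts.

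**Figure D3:**
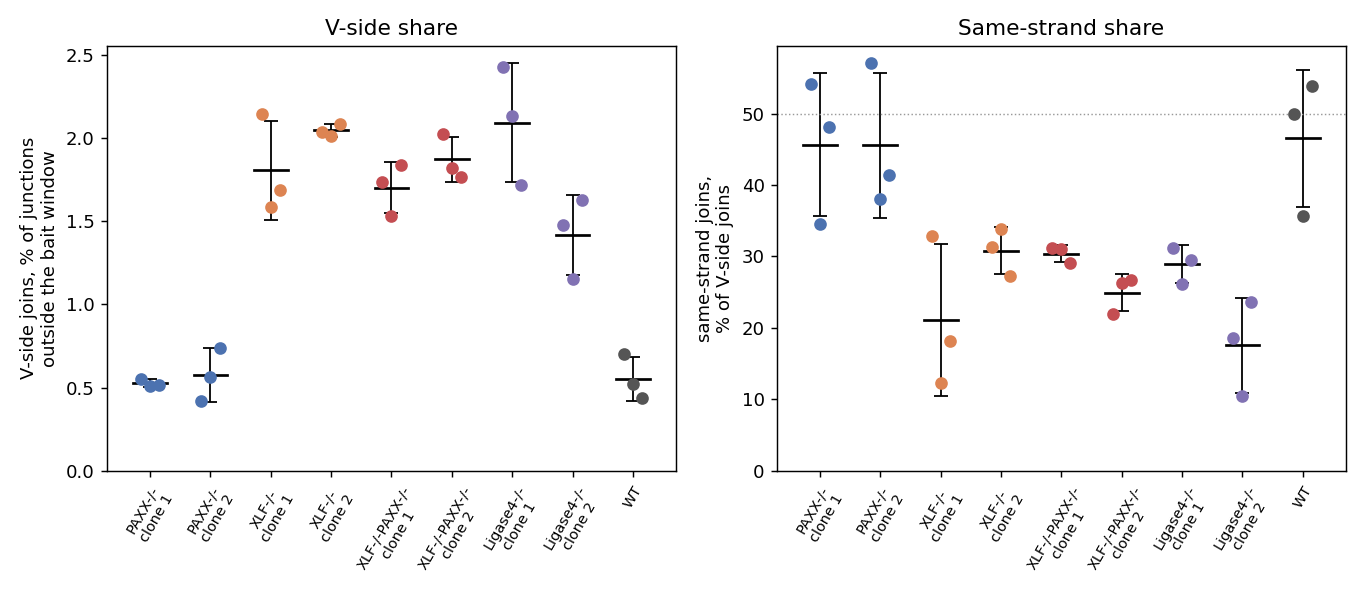
V-side joins as a percentage of junctions outside the bait window (left) and same-strand joins as a percentage of V-side joins (right) by clone, with 1 point per library, bars for the mean and whiskers for the SD of 3 libraries. In the left panel the PAXX-/- and WT libraries stay below 0.75% and all others above 1.1%, and in the right panel the dotted line marks an even split.

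The share within 100 kb of the bait, nearly all of it from the lower zone, averaged 40.9% in PAXX-/-, 51.6% in XLF-/-, 52.7% in XLF-/-PAXX-/- and 52.8% in Ligase4-/-, against 40.8% in WT. No contrast of this share passed: XLF-/- minus PAXX-/- was 10.7 points (95% interval -2.31 to 23.5; exact permutation p = 0.0649, adjusted 0.195).

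At the joint itself, most V-side joins used microhomology. Overlap is the number of read bases that both the bait and the prey alignment claim: above 0 it is microhomology, at 0 the joint is direct, and below 0 unaligned bases lie between, counted as an insertion. Over all genotypes, 210 members were direct (10.1%), 396 had an overlap of 2 bases and 302 of 3 bases, the commonest lengths, and 133 had 6 or more. Insertions of 1 base were 85, of 2 to 5 bases 143, of 6 to 20 bases 128, and 119 were longer. They include the alike unaligned bases at the 2 edges, whose source was not tested.

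Direct joints did not separate the genotypes. Their share of a library's V-side joins averaged 11.8% ± 7.04 in PAXX-/-, 9.84% ± 2.23 in XLF-/-, 8.78% ± 2.67 in XLF-/-PAXX-/- and 9.56% ± 3.02 in Ligase4-/- (SD, n = 6 each), against 9.95% ± 4.39 in WT (SD, n = 3). Genotype accounted for 12.6% of the sum of squares over clones (exact permutation p = 0.992), and XLF-/- minus WT was -0.101 points with a 95% interval of -5.20 to 4.54. In the 20 kb Sα window below the bait, where switch junctions fall, direct joints averaged 16.9% in PAXX-/-, 6.25% in XLF-/-, 5.84% in XLF-/-PAXX-/- and 6.27% in Ligase4-/-, against 18.4% in WT.

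The microhomology share averaged 56.0% ± 9.71 in PAXX-/-, 71.3% ± 4.23 in XLF-/-, 66.8% ± 1.08 in XLF-/-PAXX-/- and 64.4% ± 6.26 in Ligase4-/- (SD, n = 6 each), against 59.7% ± 9.62 in WT (SD, n = 3). The lowest, median and highest libraries had 42.3%, 55.7% and 70.4% in PAXX-/- and 65.2%, 70.7% and 77.3% in XLF-/-, so these 2 ranges overlapped. No contrast passed after adjustment. XLF-/- minus PAXX-/- was 15.3 points (95% interval 5.66 to 24.6; exact permutation p = 0.00866, adjusted 0.0556), and it was 18.1 and passed without library 3 of PAXX-/- clone 1 (exact permutation, adjusted p = 0.0303). With gaps over 20 bases left out it was 6.64 points (exact permutation p = 0.310, adjusted 0.557), and with all insertions left out 6.30 (exact permutation p = 0.245, adjusted 0.583). XLF-/-PAXX-/- minus XLF-/- was -4.42 points (95% interval -8.37 to -0.521; exact permutation p = 0.0303, adjusted 0.127). With gaps over 20 bases left out, this contrast was -6.11 points and passed (exact permutation, adjusted p = 0.0303), and with all insertions left out it was 0.588. Microhomologies averaged 3.06 bases in PAXX-/-, 2.91 in XLF-/-, 3.13 in XLF-/-PAXX-/- and 3.07 in Ligase4-/-, against 2.81 in WT, and no contrast passed.

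Compared with Sα in the same clones, V-side joins differed in microhomology length. In the kind of joint no mean difference passed, but its direction differed between genotypes, which was not tested. V-side microhomologies were longer by 0.333 bases, in 8 of 9 clones (exact two-sided sign-flip test, p = 0.0117, adjusted 0.0195). Without overlaps over 10 bases the difference was 0.216 bases, with the same p. The direct share differed by 0.127 points (exact sign-flip p = 0.945), the mean of opposite differences. It was higher on the V side in all 6 XLF-/-, XLF-/-PAXX-/- and Ligase4-/- clones and lower in WT and both PAXX-/- clones. For the microhomology share the difference was -2.96 points and for the insertion share 2.84 points, and neither passed. The microhomology difference was positive in WT (5.46 points) and in the PAXX-/- clones (0.544 and 4.65). In the other 6 clones it ran from -15.6 to -2.81 points. The lowest was Ligase4-/- clone 2, where gaps over 20 bases were 19.1% of the members, and the next was -7.40 in XLF-/- clone 1. Without such gaps, the microhomology share of Ligase4-/- clone 2 was 74.6% on the V side and 76.7% in Sα.

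Joins to other chromosomes differed from the V side in 3 of these 4 measures. The direct share of V-side joins was lower than theirs by 5.44 points and the microhomologies were shorter by 1.08 bases, each in 9 of 9 clones (exact sign-flip p = 0.00391, adjusted 0.00781). The microhomology share was higher by 8.38 points, in 9 of 9 clones, with the same p. Without overlaps over 10 bases the length difference was -0.399 bases (exact sign-flip p = 0.00391, adjusted 0.00781). Gaps over 20 bases were 19.3% of the joins to other chromosomes in PAXX-/-, 19.8% in XLF-/-, 15.5% in XLF-/-PAXX-/- and 21.7% in Ligase4-/-, against 24.0% in WT. Without them the direct difference was -8.16 points and the microhomology difference 0.969 points (exact sign-flip, adjusted p = 0.625). The insertion share, -2.94 points with all joins, was then 7.20 points higher on the V side (exact sign-flip, adjusted p = 0.00781).

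**Figure D4:**
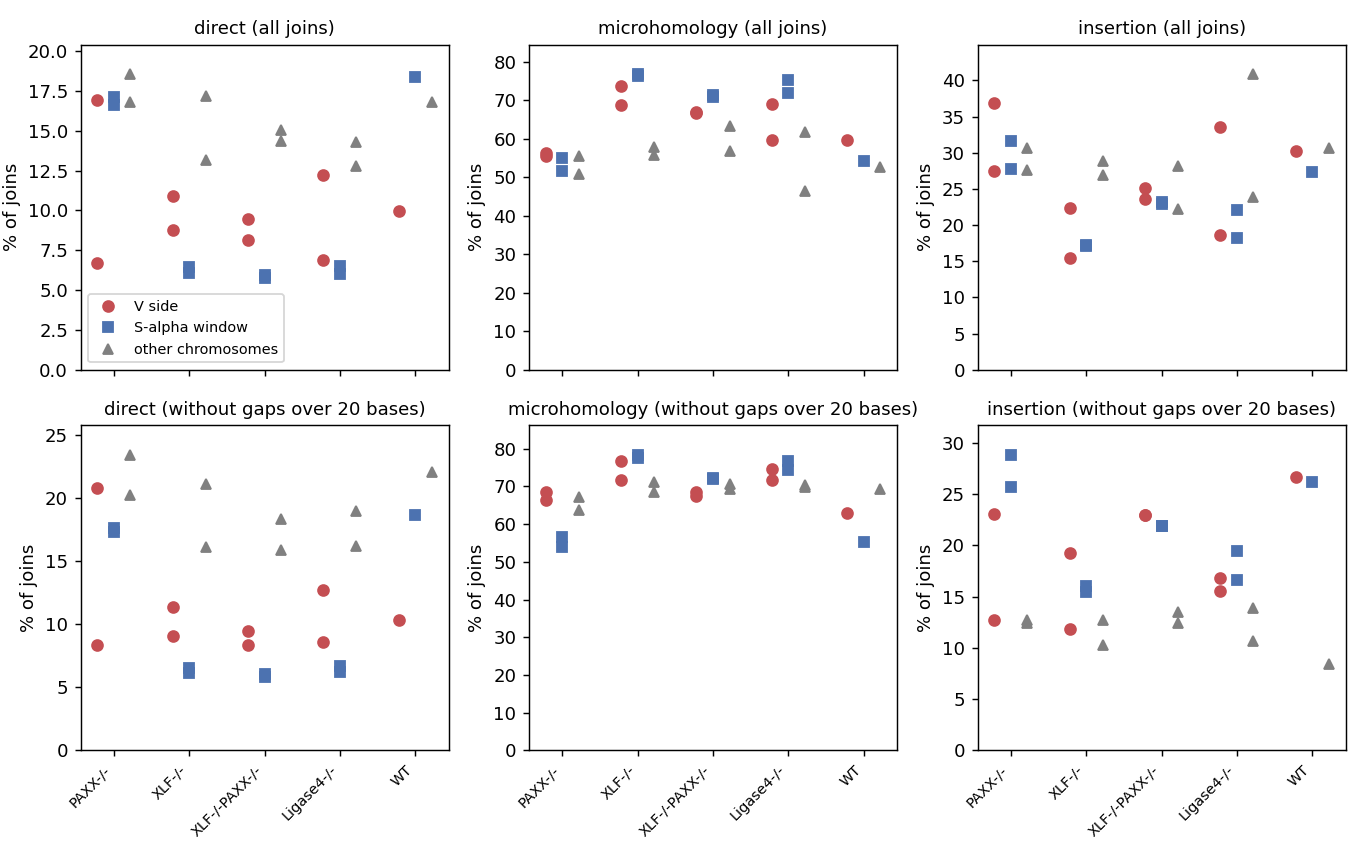
Direct, microhomology and insertion joints as a percentage of joins (vertical axes) for V-side joins (circles), the Sα window (squares) and other chromosomes (triangles), with 1 point per clone as the mean of its 3 libraries, by genotype; the lower row leaves out gaps over 20 bases. Direct joints of the Sα window lie near 6% in XLF-/-, XLF-/-PAXX-/- and Ligase4-/- and near 17% to 18% in PAXX-/- and WT, while those of the V side spread between about 6.7% and 17% with no such split.

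Joint structure varied with distance and strand among the members. In the 50 kb above the lower edge, 7.71% of joins without a long gap were direct, and 6.04% were in the 50 kb above the upper edge, against 18.4% of the joins above the upper zone. The distant joins also had the longest microhomologies, 3.52 bases on average, against 2.87 in the lower and 2.995 in the upper zone. Insertions were 19.5% and 24.8% of the joins in the lower and upper zones and 13.2% above them. By strand, 14.3% of same-strand and 8.42% of opposite-strand joins were direct. These counts pool libraries and were not tested.

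Long gaps were unevenly spread. Of the 119 members with more than 20 unaligned bases, 41 lay in 1 window of 5 kb, from 114815000 to 114820000, where all members were of this kind, and they make up most of the fourth bin named above. Ligase4-/- clone 2 supplied 32 of the 41, all on the opposite strand between 114816720 and 114816800, in 10, 15 and 7 reads of its libraries. XLF-/- clone 2 supplied 4, PAXX-/- clone 1 supplied 3 and PAXX-/- clone 2 supplied 2. Long gaps were 16.3% of the members in PAXX-/-, 4.18% in XLF-/-, 1.85% in XLF-/-PAXX-/- and 7.81% in Ligase4-/-, against 4.26% in WT. They reached 19.1% in Ligase4-/- clone 2. Of the 41 in the window, 11 held a 10-base word of the commonest sequence after the prey, among read tails in a set range of lengths. Their part in the results was not tested beyond leaving them out.

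At matched distances of 0.5 to 6 Mb on the mm9 reference, the V side held more joins in total than the opposite side of the bait. Its excess came from beyond 1 Mb. Reference distances need not hold in these cells, because joining V, D and J segments usually removes the DNA between them. What this adds to the comparison was not tested. Between 0.5 and 6 Mb there were 879 joins above and 412 below, and averaged over clones the upper share was 17.4 points above an even split, in 9 of 9 clones (exact two-sided sign-flip test, p = 0.00391, adjusted 0.00781). Ligase4-/- clone 2 was above by 4.87 points only through library 3, with 31 joins above and 9 below, whereas libraries 1 and 2 had 12 and 15 above and 19 and 16 below. Between 1 and 6 Mb the mean was 27.3 points above an even split (exact sign-flip, adjusted p = 0.00781). That range held 862 joins above and 251 below, so between 0.5 and 1 Mb more joins lay below the bait than above it. Between 0.5 and 6 Mb without the 50 kb above the upper edge, 575 joins remained above the bait, 58.3% of the total. Leaving out gaps over 20 bases as well, that share was 49.2% in PAXX-/- (30 above and 31 below). In the other genotypes it ran from 55.0% in XLF-/-PAXX-/- to 66.4% in XLF-/-. Between 3 and 6 Mb, beyond both edges, there were 356 above and 118 below. In that range PAXX-/- had 24 joins above and 9 below, XLF-/- 95 and 25, XLF-/-PAXX-/- 81 and 40, Ligase4-/- 145 and 42, and WT 11 and 2.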

How the data were processed

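LAM-HTGTS junctions of 27 libraries were taken from the tables the authors deposited, 1 table per clone and 1 junction per line. Per the submitters' processing notes, Bowtie2 and mm9 were used; no further step is named in what was available. The deposited values, of the kind called other here, are positions on the read and genome (base numbers), strand signs and library names. A library column told the 3 libraries of a clone apart but not their replicate numbers, so the numbers used are names and nothing more. The number of value columns without a sample was 0.

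Members, strand, overlap and the bait window were computed as the report states. The Sα window was the 20 kb centred on the fullest 1 kb bin of the chromosome beyond 50 kb of the bait. Libraries with fewer than 10 members would have had no structure share. Genotypes were compared over 9 clone means (945 splits), pairs of genotypes over libraries (84 or 924 splits) by two-sided exact permutation (intervals hold the shifts the test did not reject), and clone means against 0 by exact sign flips (512 patterns). Benjamini-Hochberg adjustment covered 42 and 10 tests, with a threshold of 0.05. No library of a mutant genotype stood apart in an outlier test, for which the WT libraries were too few. Libraries of different clones shared 1.74% to 14.2% of exact junctions, against 3.77% to 13.4% within a clone. The members, measures and tests were chosen with earlier results of these data known. Named bins were the 5 of 50 kb with the highest mean share over clones and a member in at least 5 clones, and named junctions the 5 in most libraries among those in at least 3 clones. Edges, zones and profiles were added after seeing the data and have no test. Tests were tried on simulated data. Python 3.11.15, numpy 2.4.6, pandas 2.3.3 and matplotlib 3.10.9 were used.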

Additional observations from a re-analysis of the deposited data

How the results depend on the processing

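Of 181 values under alternatives other than leaving out, 168 kept their direction and side of the threshold. With repeated junctions collapsed, the near share of PAXX-/- minus WT was -0.223 points. Without Sα in the denominator, the V-side share of XLF-/-PAXX-/- minus XLF-/- was 0.000424 points. Without gaps over 20 bases, the microhomology share was 4.62 for PAXX-/- minus WT, -6.11 for XLF-/-PAXX-/- minus XLF-/- (passing), 1.35 for V side minus Sα and 0.969 for V side minus other chromosomes (no longer passing), the direct share 0.300 for Ligase4-/- minus WT, the insertion share -2.24 for V side minus Sα and 7.20 for V side minus other chromosomes, and, an alternative added after seeing the data, the same-strand share 0.582 for PAXX-/- minus WT. With insertions left out, XLF-/-PAXX-/- minus XLF-/- had a microhomology share of 0.588. As a percentage of all junctions, the V-side share of XLF-/-PAXX-/- minus WT was 0.807 points, and with insertions left out the microhomology share of XLF-/- minus WT was 2.90, against 11.5 with them. Permuted within runs, XLF-/- minus PAXX-/- kept its V-side share of 1.38 and same-strand share of -19.6 but no longer passed. The cause was not tested.

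Leaving out 1 library or clone in turn moved the following. The V-side share ranged from -0.0589 to 0.0713 for PAXX-/- minus WT and from 1.25 to 1.496 for XLF-/- minus PAXX-/-. The same-strand share ranged from -6.33 to 2.73, from -24.5 to -14.8 and, for XLF-/-PAXX-/- minus XLF-/-, from -3.15 to 6.57. In 11 of 16 such values for the same-strand share and 10 of 16 for the V-side share, XLF-/- minus PAXX-/- no longer passed. The direct share ranged from -3.07 to 2.30 for Ligase4-/- minus WT, -3.24 to 7.01 for PAXX-/- minus WT, -7.11 to 3.14 for XLF-/- minus PAXX-/-, -1.50 to 2.43 for XLF-/- minus WT, -2.57 to 1.36 for XLF-/-PAXX-/- minus WT, -2.13 to 0.00697 for XLF-/-PAXX-/- minus XLF-/- and -0.637 to 1.38 for V side minus Sα. The microhomology share ranged from -0.259 to 9.37 for Ligase4-/- minus WT, -8.61 to 1.01 for PAXX-/- minus WT, 12.5 to 18.1 for XLF-/- minus PAXX-/- and -6.82 to -2.01 for XLF-/-PAXX-/- minus XLF-/-. Microhomology length ranged from -0.134 to 0.741 for Ligase4-/- minus WT, -0.147 to 0.728 for PAXX-/- minus WT, -0.467 to 0.157 for XLF-/- minus PAXX-/-, -0.302 to 0.573 for XLF-/- minus WT and -0.083 to 0.792 for XLF-/-PAXX-/- minus WT. The near share ranged from -8.75 to 11.9 for PAXX-/- minus WT and -3.47 to 5.51 for XLF-/-PAXX-/- minus XLF-/-, and the insertion share of V side minus other chromosomes from -4.47 to -1.87.

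No paired analysis was possible because no label ties a library name to a replicate number. WT libraries held 13 to 20 members, so differences in strand or joint structure of a few points were not detectable at this depth; 13 of the 42 genotype and library tests had an unadjusted p below 0.05 and 2 passed. No library of a mutant genotype was an outlier within its group in any of 24 groups tested. The WT libraries were too few for that test.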
